A study of Mus musculus with 12 samples.

Results

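The comparison described here set 2 of the 12 samples of the series against each other. They were chosen by their labels as the pair with spike reads taken from 40M reads (M, 1e6) of a TruSeq library, the one on a background made from 1000 ng of total RNA and the other on a background made from 100 ng, written below as at 1000 ng and at 100 ng. The RNA was that of D1, known as a dendritic cell line of the mouse, with no allele, treatment or time point in the labels. Both backgrounds were Illumina TruSeq libraries, which capture poly(A) RNA with oligo-dT beads and copy its fragments with random primers, and the spike reads of both samples came from a TruSeq library made from 100 ng of D1 RNA. Reads were mixed on a computer, so no RNA was added to RNA: each background received the reads of its own list of mouse transcripts, and synthetic reads of uniform coverage for 2 further lists. ERCC control RNA was added to the RNA before both libraries were made. Each sample had 5 paired-end replicates. Nothing in the labels says that these came from separate cultures, so p-values measure the spread between these read sets.

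The table held 925 exon bins of 58 gene models. An exon bin is a stretch of exon that every isoform of a gene either holds whole or lacks, so a spliced isoform that gains reads raises some bins of its gene and leaves others in place. Most mammalian genes make several isoforms, by skipping an exon, keeping an intron, choosing another splice site or ending at another last exon. Reads can be assigned to 1 isoform only where they touch sequence that the others lack. Of the 58 models, 21 carried a transcript on a TruSeq list, 33 carried only synthetic transcripts and 4 were on no list (Sin3b, Phospho2, Tom40 and Parg). Of 80 listed transcripts 78 were in the table.

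Replicates held 362039 to 572659 reads in bins at 1000 ng and 272360 to 452121 at 100 ng. Levels are given as FPKM equivalents, reads per kilobase of bin divided by a size factor per replicate and set to the scale of reads per 1e6. Bin length here is end minus start, a base short of the bin, which raises the levels of the shortest bins in both backgrounds alike. Size factors ran from 0.89 to 1.86 at 1000 ng and from 0.67 to 1.44 at 100 ng. Of 10 dendritic cell markers in a fixed list only Sirpa and Mgl2 were in the table, and both carried TruSeq reads in the 100 ng background, so the cell type could be checked against no other defining marker. Levels of bulk RNA do not tell fewer cells of a type from less RNA per cell.

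The bins on which the isoform results turn are shown first, as they stand in the NCBIM37 (mm9) mouse genome, with the bin in capitals and 10 bases on either side in lower case, read 5′ to 3′ on the gene's strand. Mgl2 E006 at chr11:69949272-69949343 is a bin that did not pass the test, and Mgl2 E010 at chr11:69950172-69950278 and E011 at chr11:69950279-69950422 are bins that were higher in the 100 ng background. Nono E008 at chrX:98638269-98638364 and Cyth4 E012 at chr15:78441879-78442027 were also higher there. Copa E007 at chr1:174022376-174022485, Fxyd5 E004 at chr7:31820228-31820302 and Atg16l1 E012 at chr1:89671656-89671703 were higher in the 1000 ng background. The genes are on the plus strand except Fxyd5, on the minus strand, and all 8 bins are coding in at least some annotated isoforms.
Mgl2 E006: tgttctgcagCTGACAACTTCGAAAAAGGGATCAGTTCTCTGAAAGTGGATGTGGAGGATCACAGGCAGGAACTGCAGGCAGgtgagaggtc
Mgl2 E010: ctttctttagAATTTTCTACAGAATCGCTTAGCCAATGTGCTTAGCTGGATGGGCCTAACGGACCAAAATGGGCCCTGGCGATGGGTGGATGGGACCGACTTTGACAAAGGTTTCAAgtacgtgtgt
Mgl2 E011: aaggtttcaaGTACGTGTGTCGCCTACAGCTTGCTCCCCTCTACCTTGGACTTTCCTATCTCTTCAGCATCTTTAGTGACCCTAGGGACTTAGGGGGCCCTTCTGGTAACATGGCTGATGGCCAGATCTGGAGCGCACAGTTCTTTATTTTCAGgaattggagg
Nono E008: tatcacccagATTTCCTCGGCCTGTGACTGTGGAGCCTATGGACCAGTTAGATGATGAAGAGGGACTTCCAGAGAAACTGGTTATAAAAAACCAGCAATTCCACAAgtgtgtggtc
Cyth4 E012: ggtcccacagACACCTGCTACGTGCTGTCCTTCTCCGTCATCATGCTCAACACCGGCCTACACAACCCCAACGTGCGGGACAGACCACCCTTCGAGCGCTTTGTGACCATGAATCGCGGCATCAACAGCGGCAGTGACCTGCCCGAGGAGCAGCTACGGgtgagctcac
Copa E007: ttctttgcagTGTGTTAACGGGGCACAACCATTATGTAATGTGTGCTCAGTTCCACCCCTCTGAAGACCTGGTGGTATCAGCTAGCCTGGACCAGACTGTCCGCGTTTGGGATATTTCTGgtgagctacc
Fxyd5 E004: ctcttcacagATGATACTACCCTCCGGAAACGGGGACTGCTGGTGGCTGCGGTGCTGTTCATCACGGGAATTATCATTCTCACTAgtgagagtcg
Atg16l1 E012: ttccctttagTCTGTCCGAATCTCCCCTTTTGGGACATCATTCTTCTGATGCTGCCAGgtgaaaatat
Of these bins, 7 are preceded by ag and followed by gt, the letters at the ends of most introns, as were 565 of the 695 bins placed on the genome (81.3%). Mgl2 E011 differs: it follows E010 without a gap, begins with GT and ends with AG, so it has the outline of an intron kept in some isoforms. In all, 104 of the 695 placed bins (15%) begin and end so. These are matches of letters and not a measure of splicing.

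Which bins differed between the backgrounds was tested with limma on log2(FPKM equivalent + 1), 5 replicates against 5, with Benjamini-Hochberg adjustment over all bins and a threshold of 0.05. Of 924 bins tested 159 were called (17.2%), 59 higher in the 1000 ng background (6.39%) and 100 higher in the 100 ng background (10.8%). Models with TruSeq reads held 104 of the calls among 322 bins, models with synthetic reads 54 among 537, and models on no list 1 among 65. On the totals of the gene models, 23 of 58 were called (39.7%), 8 higher in the 1000 ng background (13.8%) and 15 higher in the 100 ng background (25.9%). Of the 21 models with TruSeq reads 19 were called, against 4 of 33 with synthetic reads and 0 of 4 on no list, whose limma adjusted p ran from 0.543 for Sin3b and Phospho2 to 0.892 for Tom40 and whose unadjusted p was in no case under 0.05. The split of the called bins depended on the scaling: it was 36 against 36 with columns scaled by their total reads, and 42 higher against 12 lower in the 1000 ng background with no size factors, a setting added after the data were seen.

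**Figure D1:**
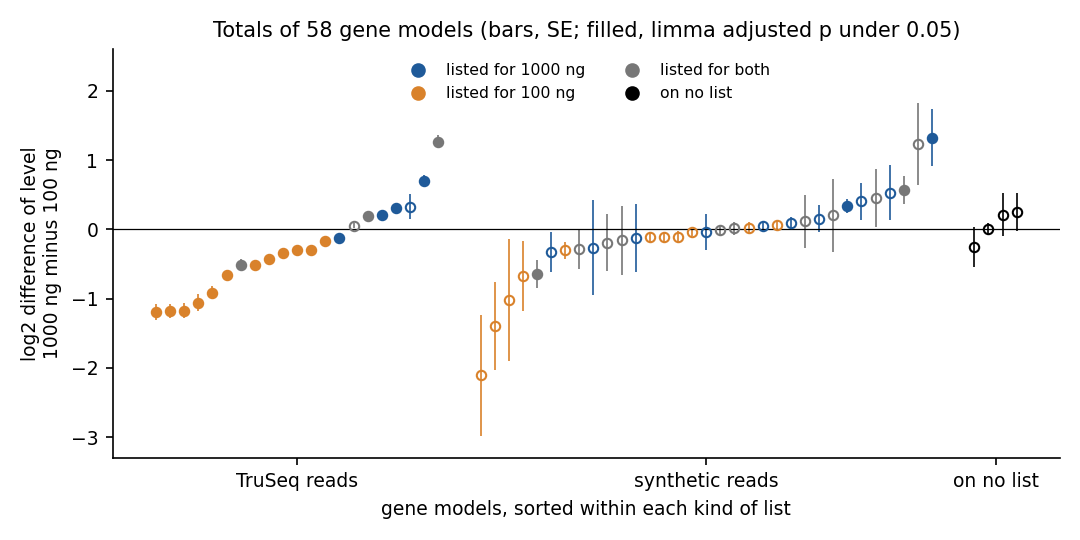
Log2 differences of level (1000 ng minus 100 ng background, y axis) of the 58 gene model totals, sorted within the models with TruSeq reads, with synthetic reads and on no list; bars are standard errors and filled points passed the limma threshold. Among models with TruSeq reads listed for the 100 ng background all 12 points lie below 0, and the widest bars are those of synthetic models.

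For the 17 models with TruSeq reads listed for 1 background alone, the total was higher in the listing background for 16, with a median log2 difference of 0.43 toward it. For the 22 synthetic models listed for 1 background, 16 were higher in it, with a median of 0.11. Over all 39 such models the median was 0.31. Of the 77 listed transcripts with a direction, 38 had a called bin of their model in that direction: 23 of 25 TruSeq transcripts, 9 of 25 synthetic transcripts with a complex isoform background and 6 of 27 with the endogenous background. This count is lenient, because any bin of the model serves. Among models listed for 1 background alone, a bin was also called against the listed direction for 1 of 19 TruSeq transcripts, that of Cyth4, for 1 of 15 complex synthetic ones, that of Thnsl1, and for 0 of 10 endogenous ones.

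The reads that the spike added could be followed because the same replicates were deposited with spikes from 20M and 80M TruSeq reads. From 40M to 80M the 1000 ng background gained 20343 reads in 97 bins and the 100 ng background 40021 reads in 177 bins, all of them bins of models on the TruSeq lists. The gain was the same to the read in all 5 replicates for 925 of 925 bins. The added reads therefore have no spread of their own, and in a scaled replicate their part is larger where the size factor is smaller. From 20M to 40M the 1000 ng background gained 10516 reads in 93 bins, so the step to 80M was 1.93 times as large.

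Calls at 40M lay on the side of the background in which a bin gained reads with the larger spike. This follows largely from the design, since the larger spike added reads for the same lists to the same replicates. A bin that gained reads there had likely received spike reads at 40M already. The counts below therefore describe where the calls lay and do not test them independently. Of 127 bins of TruSeq models with gains at 100 ng alone, 69 were called higher there and 0 were called in the other direction. Of 47 bins with gains at 1000 ng alone, 24 were called higher there and 0 in the other direction. Of 50 bins that gained in both, 3 were higher at 1000 ng and 7 at 100 ng. Of 98 bins of the same models that gained in neither, 1 was called, Birc3 E011 (1.83 against 3.31, limma adjusted p = 0.042), named here because it was the exception. The median log2 difference of these 98 bins was 0.13, against 0.03 for all bins tested. At an unadjusted limma p under 0.05, 1 of the 127 bins was higher at 1000 ng and 0 of the 47 were higher at 100 ng, while 7 of the 98 were higher at 1000 ng and 1 at 100 ng.

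**Figure D2:**
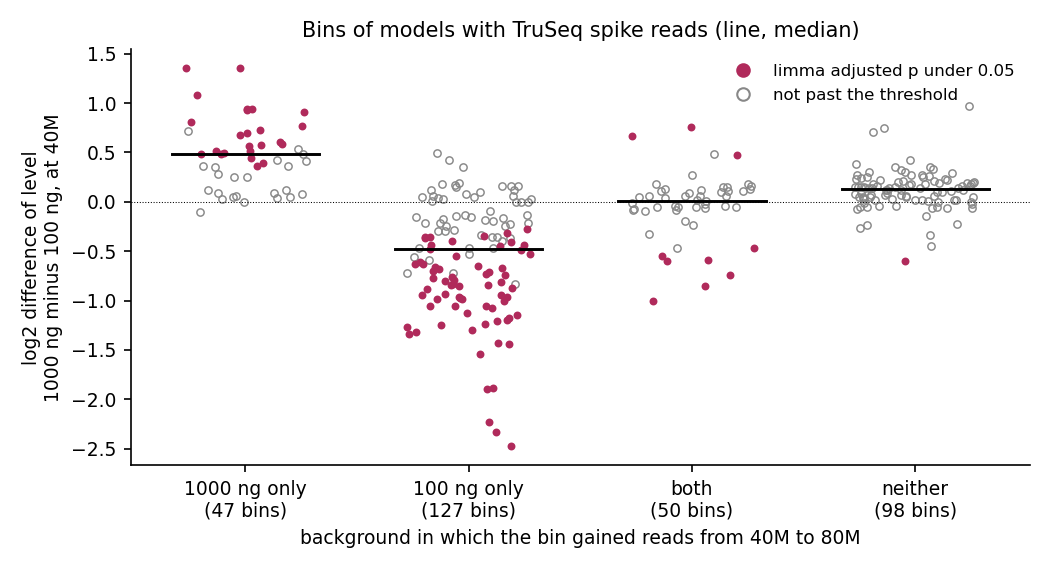
Log2 difference of level at 40M (1000 ng minus 100 ng background, y axis) for each bin of the 21 models with TruSeq reads, by the background in which it gained reads from 40M to 80M; filled points passed the limma threshold and lines are medians. The 24 filled points of the first group lie above 0 and the 69 of the second below it.

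Mgl2, a lectin receptor for galactose-type sugars on myeloid cells (chromosome 11, 69943831 to 69951052), took the most reads. Its total in the 1000 ng background was 544, 600.1, 495, 544 and 498 FPKM equivalents in replicates 1 to 5, and in the 100 ng background 1323, 1368, 1016, 1025 and 1368. Every replicate of the 100 ng background lay above every replicate of the other, in a table where 32.8% of totals did not overlap. The means were 536 ± 42.8 and 1220 ± 183 (SD, n = 5), 2.27 times as high in the 100 ng background, a log2 difference of -1.17 (SE 0.11, limma adjusted p = 3.19e-05). Compared with the same replicates carrying 20M NuGENv2 reads, at least 21013 reads had been added, which was 35.8% to 57% of the reads of the model in a 100 ng replicate.

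Mgl2 had 7 called bins, all higher in the 100 ng background: E001 to E003 at the start of the gene and E010 to E013 at its end. E006, the first bin printed above, measured 1122, 1193, 983, 1103 and 1030.4 FPKM equivalents at 1000 ng and 1000.4, 915, 1088, 1044 and 945 at 100 ng. These overlapped, with a log2 difference of 0.12 (SE 0.09, limma adjusted p = 0.454), and none of the 6 bins from E004 to E009 passed the threshold. E011 measured 399, 463, 374, 415 and 373 at 1000 ng and 1732, 1829, 1134, 1209.8 and 1802 at 100 ng. The groups did not overlap in E011, as in 139 of 925 bins (15%). It was 3.81 times as high in the 100 ng background, a log2 difference of -1.90 (SE 0.16, limma adjusted p = 9.15e-05). E010, just before it, rose from 773 ± 49.8 in the 1000 ng to 1876 ± 298 in the 100 ng background (SD, n = 5), and E012, the bin after it, from 291 ± 25.3 to 1503 ± 363. The reads gained to 80M lay in the same place: E010 to E013, 51.6% of the bases of the model, took 86% of them, while E004 to E009, 34.6% of the bases, took 4.4%. Relative to the rest of the model E011 was lower by 1.16 on the log2 scale in the 1000 ng background, and E006 higher by 1.03 (limma diffSplice adjusted p = 1.76e-13 and 2.38e-11).

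Sirpa, the inhibitory receptor for CD47 on myeloid cells (chromosome 2, 129418571 to 129457964), changed as much in total. Replicates of the 1000 ng background measured 69.8, 79.1, 66.9, 69.5 and 67.3 FPKM equivalents, and those of the 100 ng background 177, 184, 134, 137 and 179. The groups did not overlap, and the log2 difference was -1.18 (SE 0.11, limma adjusted p = 3.19e-05). Its last bin E011, of 2302 bases, rose from 76.5 ± 5.37 to 227 ± 41.5 in the 100 ng background, a log2 difference of -1.54 (SE 0.13, limma adjusted p = 9.75e-05), and took 88.4% of the reads gained. E002, E004, E005, E006 and E007 also rose, E004 from 72.9 to 153. The short bins E008, E009 and E010 measured 543, 429 and 345 at 1000 ng and 516, 383 and 305 at 100 ng and did not pass the threshold.

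**Figure D3:**
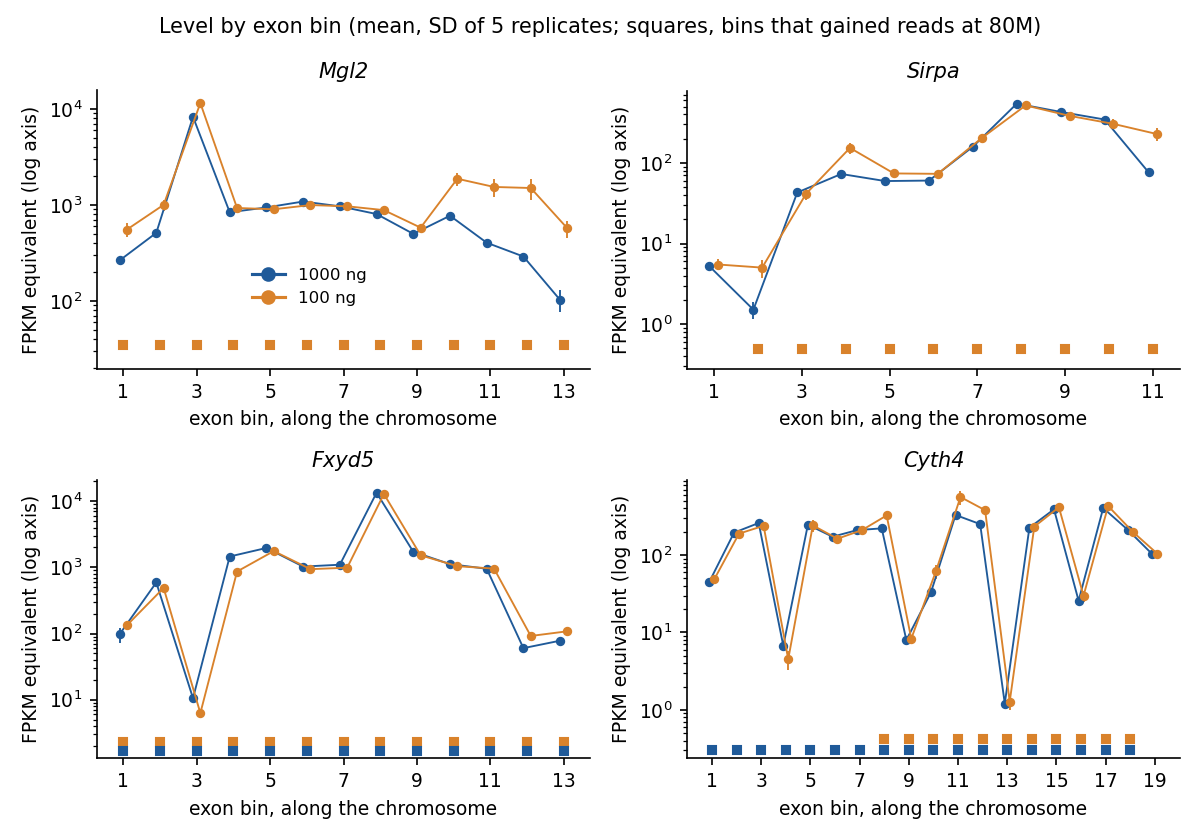
Level of each exon bin (FPKM equivalents, log axis) of Mgl2, Sirpa, Fxyd5 and Cyth4 along the chromosome, as mean and SD of 5 replicates in each background; squares mark bins that gained reads from 40M to 80M, in the colour of the background. The lines part at E001 to E003 and E010 to E013 of Mgl2 and at E002, E004 to E007 and E011 of Sirpa, and in Fxyd5, a minus-strand gene, they part at E003 and E004 one way and at E012 and E013 the other.

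The other models listed for the 100 ng background ranged from large to small changes, all toward it. Pla2g15, a lysosomal phospholipase (chromosome 8, 108674299 to 108688613), measured 7.80, 8.22, 6.64, 6.77 and 6.18 FPKM equivalents at 1000 ng and 19, 20.1, 14.6, 14.9 and 19.8 at 100 ng, with no overlap, a log2 difference of -1.20 (SE 0.11, limma adjusted p = 3.19e-05). The model of uc012hbj.1, for which the table gives no symbol, measured 3.58 ± 0.50 against 8.58 ± 1.52 (SD, n = 5). Fbf1, a component of the transition fibres that anchor cilia, measured 2.75 ± 0.27 against 6.10 ± 0.85. Of its 37 bins 12 were called, all higher in the 100 ng background. That was the highest count among models listed for 100 ng, but Fbf1 also had the most bins. In the TruSeq models listed for 100 ng, 40.8% of all bins were called. In each of the 3 models a bin at one end took the largest part of the reads gained: E008 of Pla2g15 with 84.4%, E001 of the uc012hbj.1 model with 83.8% and E001 of Fbf1, whose gene is on the minus strand, with 54.1%.

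In 4 further models the total was higher at 100 ng. Rhbdd3, a rhomboid family protein, measured 4.59 ± 0.58 at 1000 ng against 7.81 ± 0.31 at 100 ng, a log2 difference of -0.66 (SE 0.07, limma adjusted p = 6.47e-05). Birc3, a ubiquitin ligase of the inhibitor of apoptosis family, measured 5.08 ± 0.32 against 7.68 ± 0.82 (log2 difference -0.51), and its bin E001 rose from 3.84 to 12.4. Kcnn4, a calcium-activated potassium channel, measured 13.8 ± 1.09 against 18.8 ± 0.47 (log2 difference -0.43). Ccnh, the cyclin of the CDK-activating kinase, measured 6.99 ± 0.64 against 9.16 ± 0.71 (log2 difference -0.35). In these 4 genes no replicate of one background reached into the range of the other, as in 32.8% of all totals. All 4 calls were lost when columns were scaled by total reads, with limma adjusted p from 0.131 for Rhbdd3 to 0.596 for Ccnh. Under quantile normalization the log2 differences of Rhbdd3, Ccnh and Birc3 shrank to -0.22, -0.10 and -0.04 and were not called (limma adjusted p = 0.245, 0.491 and 0.762).

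Nono, an RNA-binding protein of paraspeckles (chromosome X, 98624657 to 98643930), showed a small change in total from a large change in few bins. Replicates measured 67.4, 73.2, 63, 66.9 and 60.02 FPKM equivalents at 1000 ng and 85.8, 84.8, 78.9, 77 and 81.1 at 100 ng, a log2 difference of -0.30 (SE 0.06, limma adjusted p = 0.0033). Only 5 of its 14 bins, E004 to E008, gained reads, and those 5 were the ones called. E006 rose from 91 ± 9.0 to 208 ± 34.5 (log2 difference -1.18, limma adjusted p = 0.00036) and E008, the bin printed above, from 166 ± 13.1 to 279 ± 35. The last bin E014 measured 51.5 against 45.6 and did not pass the threshold (adjusted p = 0.313). With no size factors the sign of the Nono total turned, to a log2 difference of 0.04, and its call was lost under scaling by total reads and quantile normalization (limma adjusted p = 0.680 and 0.392).

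Dhps, the enzyme that modifies the translation factor eIF5A, measured 11.5 ± 0.52 against 14.3 ± 0.59 (log2 difference -0.29, limma adjusted p = 0.00071), and 4 of its 10 bins rose in the 100 ng background. Il18rap, the accessory chain of the interleukin-18 receptor (chromosome 1, 40572207 to 40608550), had the smallest change of the 12, 8.54, 9.08, 7.81, 8.53 and 8.33 against 9.22, 9.86, 9.98, 9.83 and 9.46, a log2 difference of -0.17 (SE 0.05, limma adjusted p = 0.018). The replicates still did not overlap. Its change too was regional: E006 rose from 13.5 to 27.6 and E005 from 10.4 to 18.3, while the bins from E012 to E015 gained no reads and were not called. Without size factors the signs of the Dhps and Il18rap totals turned, with log2 differences of 0.02 and 0.13. Both calls were also lost under scaling by total reads (limma adjusted p = 0.680 for Dhps and 0.905 for Il18rap) and quantile normalization (-0.16 and -0.04, adjusted p = 0.288 and 0.762). The Il18rap call was lost as well with size factors from models on no TruSeq list (adjusted p = 0.059) and with a replicate block (adjusted p = 0.074).

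**Figure D4:**
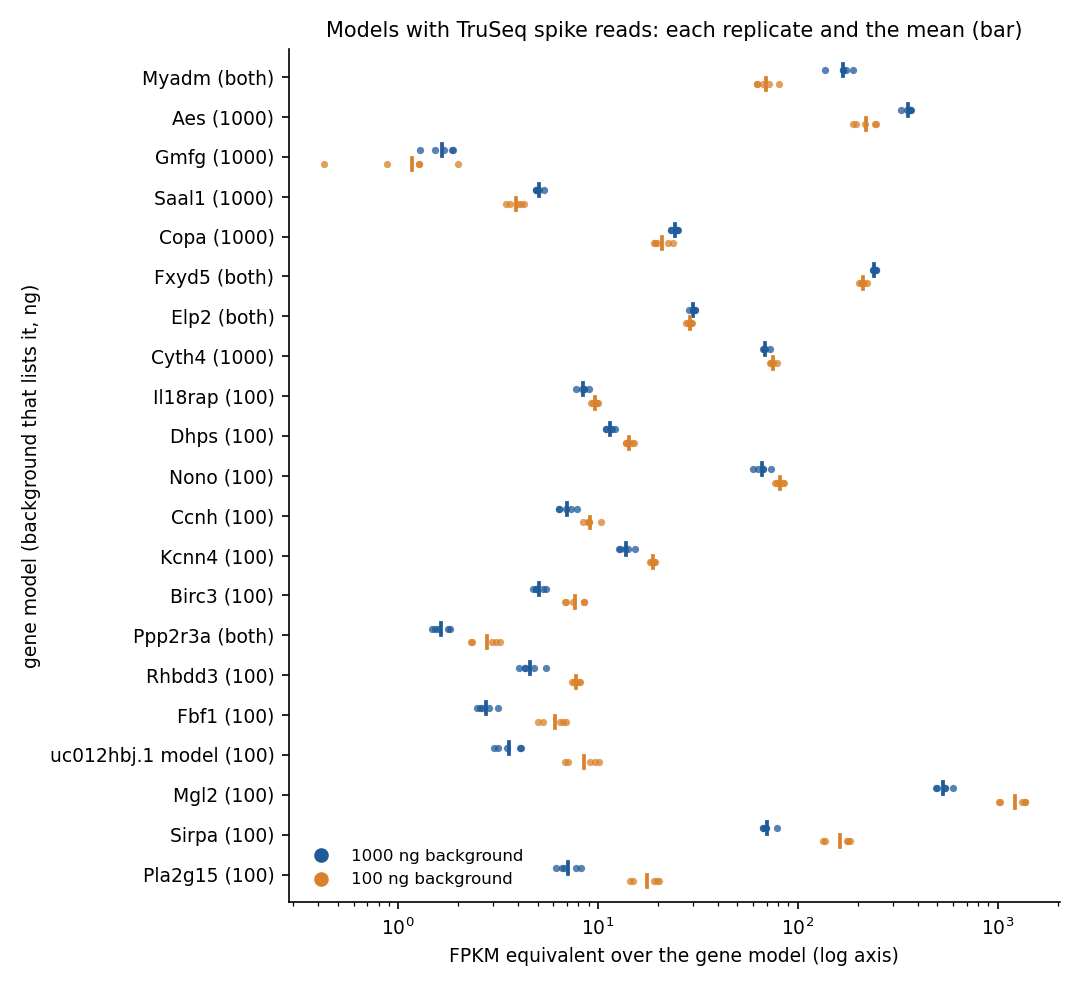
Total of each of the 21 models with TruSeq reads (FPKM equivalents, log axis) in every replicate, with the mean as a bar; the background that lists the model stands in brackets. The replicates of the 2 backgrounds overlap for Copa, Gmfg and Elp2 and are apart for the other 18 models, against 19 of all 58 totals (32.8%).

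Of the 5 models listed for the 1000 ng background alone, Aes, a corepressor of the Groucho family (chromosome 10, 81022239 to 81029107), changed most. It measured 364, 328, 363, 351 and 369 FPKM equivalents at 1000 ng and 218, 196, 243, 247 and 189.9 at 100 ng, without overlap, a log2 difference of 0.70 (SE 0.08, limma adjusted p = 9.88e-05). E001, E002, E003, E009 and E010 were called: E001 measured 101 against 52.9, E010 328 ± 42.5 against 128 ± 16.6 and E009 417 against 218, while E004 to E008 did not pass the threshold. The call on the Aes total was lost under scaling by total reads (0.76, limma adjusted p = 0.093) and quantile normalization (0.69, adjusted p = 0.112). Saal1 measured 5.07 ± 0.20 against 3.90 ± 0.33 (log2 difference 0.31, limma adjusted p = 0.0016), with 6 of 16 bins called higher in the 1000 ng background. Its total was not called under scaling by total reads (limma adjusted p = 0.434).

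Copa, the alpha subunit of the COPI coat (chromosome 1, 174012660 to 174052461), measured 24.8, 25.2, 23.1, 24.9 and 23.2 against 19.9, 19.4, 23.7, 22.5 and 19.2 FPKM equivalents. The third 100 ng replicate lay above the third and the fifth at 1000 ng, and the log2 difference was 0.21 (SE 0.07, limma adjusted p = 0.04). This call was lost when any 1 of 8 columns was left out, all but replicates 3 and 4 of the 100 ng background, with adjusted p up to 0.092. It was also lost under scaling by total reads (limma adjusted p = 0.680), quantile normalization (0.476) and a replicate block (0.1015). Size factors from models on no TruSeq list lost it too (0.289). The calls on bins lay at the start of the gene: E001 and E005 to E009 rose in the 1000 ng background. None of the 30 bins from E010 to E039 was called or gained a read. E007, printed above, measured 69.1 ± 4.55 against 32.9 ± 8.09, a log2 difference of 1.08 (SE 0.17, limma adjusted p = 0.0018). Its call was lost under scaling by total reads (limma adjusted p = 0.064).

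Gmfg, an actin debranching protein of blood cells, had few reads, a mean of 56.2 reads at 1000 ng and 32.8 at 100 ng. Its total measured 1.69, 1.53, 1.87, 1.89 and 1.29 against 0.43, 0.88, 1.28, 1.28 and 2.00 FPKM equivalents. These overlapped, and the log2 difference of 0.33 (SE 0.18) did not pass the threshold (limma adjusted p = 0.207). Without replicate 5 of the 100 ng background, the highest of its group, the adjusted p was 0.0496. Bin E001 was called (3.29 against 1.57, adjusted p = 0.028) and lost its call when any 1 of 6 columns was left out: replicate 1, 3 or 4 of the 1000 ng or 1, 2 or 3 of the 100 ng background.

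Cyth4, a cytohesin that activates ARF GTPases (chromosome 15, 78427477 to 78452449), went against its list. It is listed for the 1000 ng background, and its replicates measured 68, 72.7, 66.9, 68.7 and 68 FPKM equivalents there and 75.7, 73.6, 78.8, 74.4 and 72.9 in the 100 ng background. The 2 groups did not overlap, and the log2 difference was -0.12 (SE 0.04, limma adjusted p = 0.043). The call was lost when any 1 column other than replicate 2 of the 1000 ng background was left out (adjusted p up to 0.097), and the sign turned under quantile normalization, to 0.14, and without size factors, to 0.21. Reads were gained in both backgrounds, 1404 at 1000 ng and 1871 at 100 ng, although the labels list the gene's transcript for the first alone.

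The gains of Cyth4 differed along the gene. E001 to E007, 7 bins, gained reads in the 1000 ng background alone; E004 was called higher there (6.73 against 4.5, limma adjusted p = 0.04), a call lost without any 1 of 9 columns (all but replicate 3 of the 100 ng background). E008 and E010 to E012 were called higher in the 100 ng background. E012, printed above, measured 251 ± 11 at 1000 ng and 379 ± 41.7 at 100 ng (log2 difference -0.59, SE 0.09, limma adjusted p = 0.002). E014 to E018 gained exactly the same reads in both backgrounds, bin by bin, and none of them was called.

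Of the 4 models listed for both backgrounds, Myadm, a membrane protein of the myeloid lineage (chromosome 7, 3289039 to 3299346), had the largest change. It measured 169.6, 137, 175.5, 169 and 189.1 FPKM equivalents at 1000 ng and 67.5, 62.9, 80.5, 71.8 and 63 at 100 ng, without overlap, a log2 difference of 1.27 (SE 0.10, limma adjusted p = 2.3e-05). The labels list the same transcript, uc009eup.1, for both backgrounds. From 40M to 80M it gained 8467 reads at 1000 ng and 0 at 100 ng, and the reads above the 20M NuGENv2 table were 4596 and 0. Bin E007, of 2628 bases, took 96.1% of the gain and measured 201 ± 23.9 against 78 ± 8.16.

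Fxyd5, a FXYD family regulator of the sodium pump (chromosome 7, 31817741 to 31827500), has a different transcript on each list. Its total was close, 245, 246, 237, 242 and 239 against 216, 208, 223, 211 and 203 FPKM equivalents, a log2 difference of 0.19 (SE 0.04, limma adjusted p = 0.0039). The call was lost, among other settings, with size factors from models on no TruSeq list (0.14, limma adjusted p = 0.182) and with limma voom (0.19, adjusted p = 0.085). Its bins moved both ways. E004, printed above, measured 1495, 1335, 1491, 1464 and 1509 at 1000 ng and 827, 813, 972, 899 and 815 at 100 ng, a log2 difference of 0.75 (SE 0.08, limma adjusted p = 0.00033), and E012 measured 60.1 ± 4.63 against 91.9 ± 9.19 (log2 difference -0.60, limma adjusted p = 0.002). E003 rose with E004 and E013 with E012, and the 9 other bins were not called. Under scaling by total reads the calls of E004 and E012 were lost (limma adjusted p = 0.095 and 0.264). Relative to the rest of the model E004 was 0.74 higher and E012 0.73 lower on the log2 scale in the 1000 ng background (limma diffSplice adjusted p = 3.22e-11 and 5.59e-11).

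Ppp2r3a, a regulatory subunit of protein phosphatase 2A, gained 36 reads at 1000 ng and 303 at 100 ng. It measured 1.64 ± 0.15 against 2.80 ± 0.43 FPKM equivalents, a log2 difference of -0.52 (SE 0.08, limma adjusted p = 0.00071), with E001 and E016 as its called bins; the call on the total was lost under scaling by total reads (adjusted p = 0.189) and quantile normalization (-0.35, adjusted p = 0.112). Elp2, a subunit of the Elongator complex, gained 619 and 523 reads, and 14 of its 24 bins gained the same number in both. Its total measured 30.5, 30.6, 30, 28.7 and 30 against 28.3, 29.8, 28.8, 27.7 and 29.4, which overlapped, with a log2 difference of 0.05 (SE 0.04, limma adjusted p = 0.357). Bin E010 of Elp2 was nonetheless called, at 55.7 ± 3.07 against 39.8 ± 2.64 (log2 difference 0.48, limma adjusted p = 0.0025). That call was lost under scaling by total reads (limma adjusted p = 0.246).

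A difference in total was thus common among these genes, and so was a difference in the use of single bins. By limma diffSplice with the Simes method, bin usage differed in 26 of 58 models (44.8%), 18 of the 21 with TruSeq reads, 8 of the 33 with synthetic reads and 0 of 4 on no list. Elp2 had a usage call without a call on its total, while Saal1 and Rhbdd3 had a call on the total and none on usage (adjusted p = 0.174 and 0.0532). Of single bins, 128 of 924 (13.9%) passed the diffSplice threshold.

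Bins with the outline of an intron were among those that moved. Of the bins of TruSeq models placed on the genome, 31 begin with GT and end with AG, and 12 of these were called (38.7%), 4 higher at 1000 ng and 8 at 100 ng. Of the other 227 placed bins of these models 56 were called (24.7%). In synthetic models 3 of 63 such bins and 27 of 325 others were called. The shares were not tested against each other, since bins of a gene share its reads.

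By function, counts of calls are read against 39.7% of all totals and 17.2% of all bins, and against 19 of 21 totals in models with TruSeq reads. The 6 immune and myeloid genes (Mgl2, Sirpa, Il18rap, Fxyd5, Myadm and Cyth4) all carry TruSeq reads, and all 6 totals were called, 2 higher at 1000 ng and 4 at 100 ng, near the share of such models. Of their 77 bins 32 were called (41.6%), against 32.3% of all bins in models with TruSeq reads. Of the 4 genes of NF-kB signalling and cell death, Birc3 and Rhbdd3, with TruSeq reads, were called and the synthetic models Casp9 and Bcl2l13 were not (limma adjusted p = 0.822 and 0.883). Of the 2 phospholipases Pla2g15 was called and Pla2g16, a synthetic model, was not (3.36 against 3.32). Of 5 genes of RNA and chromatin (Gas5, Cbx7, Sin3b, Elp2 and Trm1l) 0 were called on totals by limma, also at an unadjusted p under 0.05, and 13 of their 101 bins were called (12.9%), near the share of all bins. Trm1l, a synthetic model, held 12 of these 13 and Elp2 the other 1. Aes and Dvl3, of Wnt signalling and corepressors, were both called higher in the 1000 ng background. Of 5 genes of cytoskeleton and cilium, Fbf1 and Evi5l were called and Gmfg, Sh3pxd2b and Bbs9 were not, and of the 2 phosphatase regulators Ppp2r3a was called and Arpp19 was not.

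Replicates spread more in models with synthetic reads than in those with TruSeq reads. Over the replicates of a background, log2 totals had a median SD of 0.43 at 1000 ng and 0.38 at 100 ng for the 33 synthetic models, against 0.10 and 0.13 for the 21 models with TruSeq reads. The 4 models on no list had 0.27 and 0.47, so a wide spread was not particular to synthetic models. Tmem62 had the largest difference of any total in the table. It measured 199, 7.29, 184, 134 and 191 FPKM equivalents at 1000 ng and 671, 604, 203, 308 and 463 at 100 ng, which lists it. The groups did not overlap, but replicate 2 of the 1000 ng background lay far below the rest, and the log2 difference of -2.11 (SE 0.88) did not pass the threshold (limma adjusted p = 0.092). It is named here for that difference, after its values were seen.

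**Figure D5:**
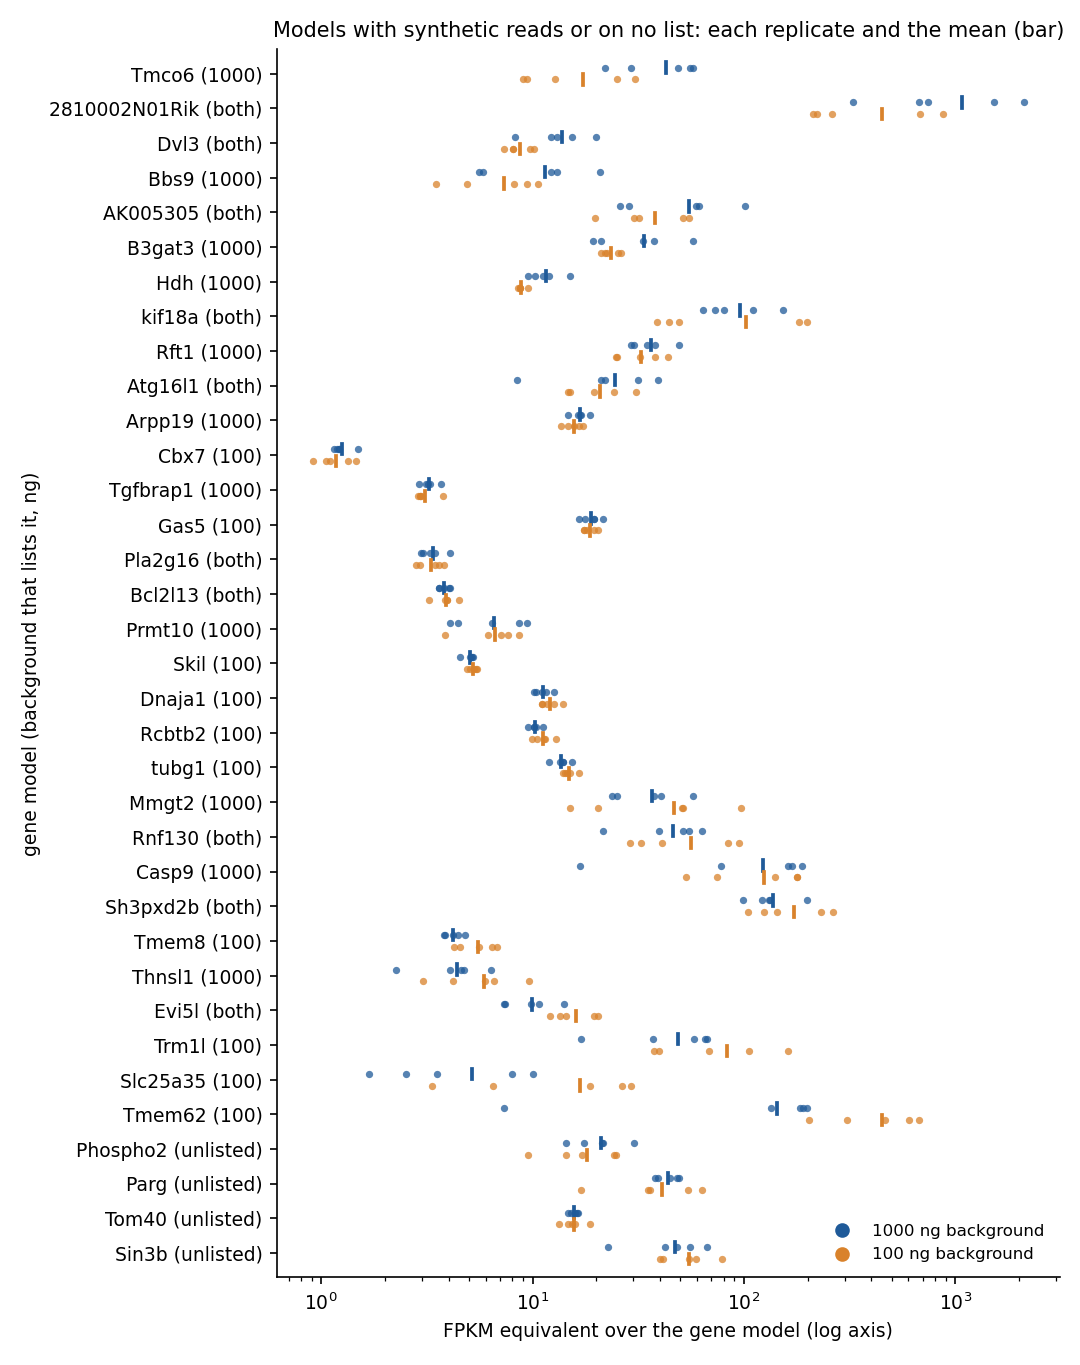
Total of 31 of the 33 models with synthetic reads and of the 4 on no list (FPKM equivalents, log axis) in every replicate, with the mean as a bar. The points of the 2 backgrounds overlap for every model plotted except Tmem62.

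Of the synthetic totals 4 were called, each narrowly. Tmco6 measured 29.2, 22, 57.3, 48.7 and 55.8 FPKM equivalents in the 1000 ng background, which lists it, and 30.4, 9.002, 12.7, 9.38 and 25 in the other, a log2 difference of 1.32 (SE 0.41, limma adjusted p = 0.03). Hdh, the huntingtin gene, measured 9.55, 11.9, 10.2, 11.2 and 15 against 8.75, 8.52, 9.56, 8.69 and 8.72, a log2 difference of 0.34 (SE 0.10, limma adjusted p = 0.03). In both genes the groups overlapped. Each call was lost when any 1 of 6 columns was left out, with adjusted p up to 0.073 for Tmco6 and 0.065 for Hdh. For Tmco6 these were replicates 3, 4 and 5 of the 1000 ng and 2, 3 and 4 of the 100 ng background, and for Hdh replicates 2 and 4 of the 1000 ng and 1, 2, 4 and 5 of the 100 ng background. The bins of Hdh changed in 5 of 70 cases, the largest in E005 at 25 ± 10.4 against 11 ± 2.74 (log2 difference 1.07, limma adjusted p = 0.029), a call lost without any 1 of 6 columns: replicates 2, 3 and 4 of the 1000 ng and 1, 3 and 4 of the 100 ng background.

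Evi5l and Dvl3 have synthetic transcripts on both lists. Evi5l measured 7.37, 9.82, 7.34, 10.8 and 14.1 FPKM equivalents at 1000 ng and 20.3, 13.4, 12.05, 14.4 and 19.6 at 100 ng, a log2 difference of -0.65 (SE 0.20, limma adjusted p = 0.03). Dvl3, a dishevelled protein that relays Wnt signals (chromosome 16, 20517055 to 20532593), measured 13.1, 8.22, 19.9, 12.2 and 15.4 against 10.2, 9.69, 7.34, 8.06 and 8.06, a log2 difference of 0.57 (SE 0.20, limma adjusted p = 0.046). The Evi5l call was lost without any 1 of 6 columns, replicates 1, 2 and 3 of the 1000 ng and 1, 4 and 5 of the 100 ng background (adjusted p up to 0.074), and the Dvl3 call without any 1 of 9, all but replicate 2 of the 1000 ng background (adjusted p up to 0.1). Inside Dvl3, 12 bins rose in the 1000 ng background and E003, a noncoding exon of 1084 bases, rose in the other, from 1.4 ± 0.50 to 3.83 ± 1.35 (log2 difference -0.99, limma adjusted p = 0.011), a call lost with a replicate block (adjusted p = 0.057). The exact permutation called no bin of any model, so its adjusted p of 0.053 does not single out E003.

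Trm1l and Rcbtb2, both listed for the 100 ng background, had called bins without a called total. In Trm1l 12 of 22 bins rose in the 100 ng background, E008 from 43.5 ± 18.1 to 138 ± 80.7 (limma adjusted p = 0.035), with replicates that overlapped. The E008 call was lost without any 1 of 7 columns (adjusted p up to 0.084): replicates 1 to 4 of the 1000 ng and 1, 2 and 4 of the 100 ng background. In Rcbtb2 the total measured 10.3 ± 0.63 against 11.2 ± 1.11, and E012, a noncoding exon of 1607 bases, measured 0.65, 0.20, 0.40, 0.38 and 0.41 at 1000 ng and 1.29, 4.33, 0.91, 4.81 and 2.01 at 100 ng. All replicates of the latter were higher, in a table where 15% of bins did not overlap. The log2 difference was -1.25 (SE 0.31, limma adjusted p = 0.021). The E012 call was lost with a pseudocount of 5 (-0.47, limma adjusted p = 0.054) and with a replicate block (adjusted p = 0.072). In the exact permutation its adjusted p was 0.053, but no bin of any model was called there. Of the models on no list, Parg, which breaks down poly(ADP-ribose), had 1 called bin, E022, at 16.6 ± 4.28 against 6.43 ± 2.69 (limma adjusted p = 0.01).

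Large differences were also seen in single bins of other synthetic models, of which 2 are named after their values were seen. Atg16l1, which carries the autophagy conjugation complex to membranes, differed in E012, the 48-base coding exon printed above. It measured 9.92, 41.4, 52, 102 and 102 FPKM equivalents at 1000 ng and 2.45, 5.34, 1.87, 2.16 and 10.6 at 100 ng. The highest 100 ng replicate lay above the lowest 1000 ng replicate, and the log2 difference was 3.36 (SE 0.65, limma adjusted p = 0.006). This rests on a mean of 76.2 reads against 4, while the total of the gene measured 24.4 ± 11.7 against 20.9 ± 6.81. Rnf130 E012, in a RING finger gene, measured from 4.12 to 47.7 against 1.21 to 6.05 (limma adjusted p = 0.04).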

How the data were processed

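The authors deposited 1 table with 10 columns for the 2 samples. STAR, Cuffdiff and mm9 are named in the submitters' processing notes; the read counter is not named there. Of 1744 rows, 818 that repeated another and 1 that was not finite were dropped. The deposited values were a coverage signal, whole reads over bin length (end minus start). The fifth 100 ng column was further divided by 16.1, a number found from its own value steps. Bin lengths were searched for so that values came out whole within 0.001 reads. That 100% of values were whole thus follows from the search and does not test the unit. A count test was not used. Size factors were medians of ratios. limma 3.58.1 in R 4.3.3 was fitted on log2(FPKM equivalent + 1), which understates changes of low values; bins of unlisted models needed a mean of 1. Bins were placed by length and order on GENCODE vM1 (695 of 925; 55 of 58 models). The fit was tested on simulated data. The members and lists were chosen with earlier results of these data known. Genes were named by a fixed rule: every model with TruSeq reads, and synthetic models called on totals or with at least 3 called bins. Unlisted models needed a called bin. For bins the rule picked the called one of a model with the largest difference in each direction. Levels are not given for all of these, such as Mgl2 E013. Many bins described were picked outside the rule, also among those printed as sequence: Mgl2 E006, E010 and E011, Nono E008, Cyth4 E012 and Atg16l1 E012. Results for some synthetic models are not reported here.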

Additional observations from a re-analysis of the deposited data

Results flagged for a closer look

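In 2 of 56 groups of 5 replicates tested, 1 replicate stood apart from its group by Dixon's criterion; chance gives about 1 in 20. The total of Sirpa was 79.1 FPKM equivalents in replicate 2 of the 1000 ng background, with the nearest other at 69.8. That replicate had the largest size factor, 1.86. The total of Hdh was 9.56 in replicate 3 of the 100 ng background, with the nearest other at 8.75. The Sirpa value lay below every 100 ng replicate, and the Hdh value just above the lowest 1000 ng replicate, at 9.55.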

How the results depend on the processing

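The main counts were 159 bins, 23 totals, 26 models with differing usage and 38 transcripts recovered. On the values as deposited, where the fifth 100 ng column is in another unit, they were 0, 1, 6 and 0 (94 bins at an unadjusted p under 0.05), and without that column 15, 2, 11 and 8. Columns scaled by total reads gave 72, 10 and 13, quantile normalization 13 totals, and no size factors, added after the data were seen, 54, 4, 10 and 22. The exact permutation, with a smallest p of 0.00794, called 0 bins and so 0 transcripts, since 147 bins must reach that p and 139 did; 258 bins had an exact p and 263 a limma p under 0.05 before adjustment, and 20 totals were called. Without 1 replicate the counts ran from 120 to 145 bins, 18 to 21 totals, 25 to 29 usage calls and 32 to 37 transcripts. Called bins split 8 to 7 as deposited without the fifth column, against 59 to 100. A replicate block gave 101 bins, 18 totals, 29 usage calls and 31 transcripts. Same-numbered replicates did not deviate together across bins (correlations from -0.37 to 0.08). Such correlations cannot exclude that equal numbers pair the samples. Signs turned on values as deposited for Rcbtb2 (0.0803), Nono (0.24), Cyth4 (0.33), Birc3 (0.0042), Il18rap (0.062), Kcnn4 (0.0415), Dhps (0.05805), Ccnh (0.0267) and Fxyd5 E012 (0.0827), and without the fifth column for Rcbtb2 (0.0123), Cyth4 (0.0584) and Il18rap (0.0039). They turned for Elp2 with size factors from bins without gained reads (-0.0089) and under quantile normalization (-0.0832), where Cyth4 gave 0.14. Without size factors they turned for Rcbtb2 (0.21), Nono (0.0358), Cyth4 (0.21), Il18rap (0.13) and Dhps (0.0232), and without replicate 3 of the 100 ng background for Parg (-0.0669, in a range up to 0.394 without other replicates). The cause was not tested.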
